A study of Rattus norvegicus with 10 samples.

Results

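Heat shock proteins and their partner chaperones were examined in heart RNA from male rats of the inbred Fischer-344 strain at 6 months (adult) and 24 months (aged). The group was chosen by gene name. It took the genes of the Hspa, Hspb, Dnaja, Dnajb, Bag and Cct families, Hsp90ab1, Hsp90b1, Hspd1, Hspe1, Hsph1, Tcp1 and Hsf1, and held 54 of the 14217 named genes on the array, read by 77 of its 31042 probe sets. Hspa1b, Hsp90aa1 and Hspa8 meet the same naming but were read here only by probe sets assigned to several genes, and no value is given for them. There were 5 adult arrays (replicates 1, 2, 3, 4 and 6) and 5 aged arrays (replicates 2 to 6). All rats were fed standard chow, and the labels give no treatment, transgene or mutation in either group. The study was designed around transcripts of mitochondrial metabolism, and the arrays were Affymetrix rat genome expression arrays. The sample labels name the whole heart as the source of RNA and the series text the ventricles. The labels do not say outright that each array is a separate rat, and the p-values then describe only the spread between these samples, which may be technical.

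Chaperones bind unfolded or partly folded proteins and keep them from aggregating while they fold. HSP70 proteins work in cycles of ATP use that J-domain proteins (the Dnaja and Dnajb families) start and that BAG proteins and HSP110 proteins complete by releasing the nucleotide. HSP90 acts later on clients such as kinases and steroid receptors, the chaperonin TRiC folds actin and tubulin inside a closed barrel, and small heat shock proteins hold unfolding proteins without using ATP. In heart muscle, which beats without pause and keeps its myocytes for life, small heat shock proteins and BAG3 guard the sarcomere, and HSP60 with HSP10 folds proteins in the mitochondrial matrix. The factor HSF1 switches many of these genes on by binding heat shock elements, inverted repeats of the letters GAA, in their promoters.

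Of the 54 chaperone genes, 4 passed the test for a difference between the ages. Dnaja1, a cytosolic J-domain partner of HSP70, was higher in aged hearts by 30.7%, and Hspa2, an HSP70 known best from testis, by 17%. Dnaja3, the mitochondrial J-domain protein, changed by -20.6%, and Hspd1, which encodes the mitochondrial chaperonin HSP60, by -17.6%. Each value is a log2 difference from that probe set's median over the 10 arrays, with no absolute level, and a gene is called risen or fallen where its limma p, adjusted over all 14217 genes, was under 0.05. By that rule 2 members rose and 2 fell, which is 7.41% of the group against 11.9% of all genes. The group is unlike all genes in signal. A probe set in the brightest of 3 intensity classes, read from the numerical step of the values, was held by 53.7% of members and 19.9% of all genes. With the dimmest probe sets left out, 3 of 51 members were called, against 13.3% of all genes. All genes were called upward in 6.77% and downward in 5.09%. At an unadjusted p under 0.05 there were 11 members (20.4%), against 26.3% of all genes. The median difference over the 54 members was -0.03, beside -0.0050 over all genes, and the range ran from -0.33 to 0.39. With signs left aside the median was 0.079, beside 0.076 over all genes, so the typical size was near that of all genes. The aged and adult arrays did not overlap in 1 member, Dnaja1, against 9.91% of all genes. The 95% interval of a member's difference had a median half-width of 0.14, and the 5 arrays per age limit this precision. In whole tissue, fewer cells of a type and less RNA per cell cannot be told apart.

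**Figure D1:**
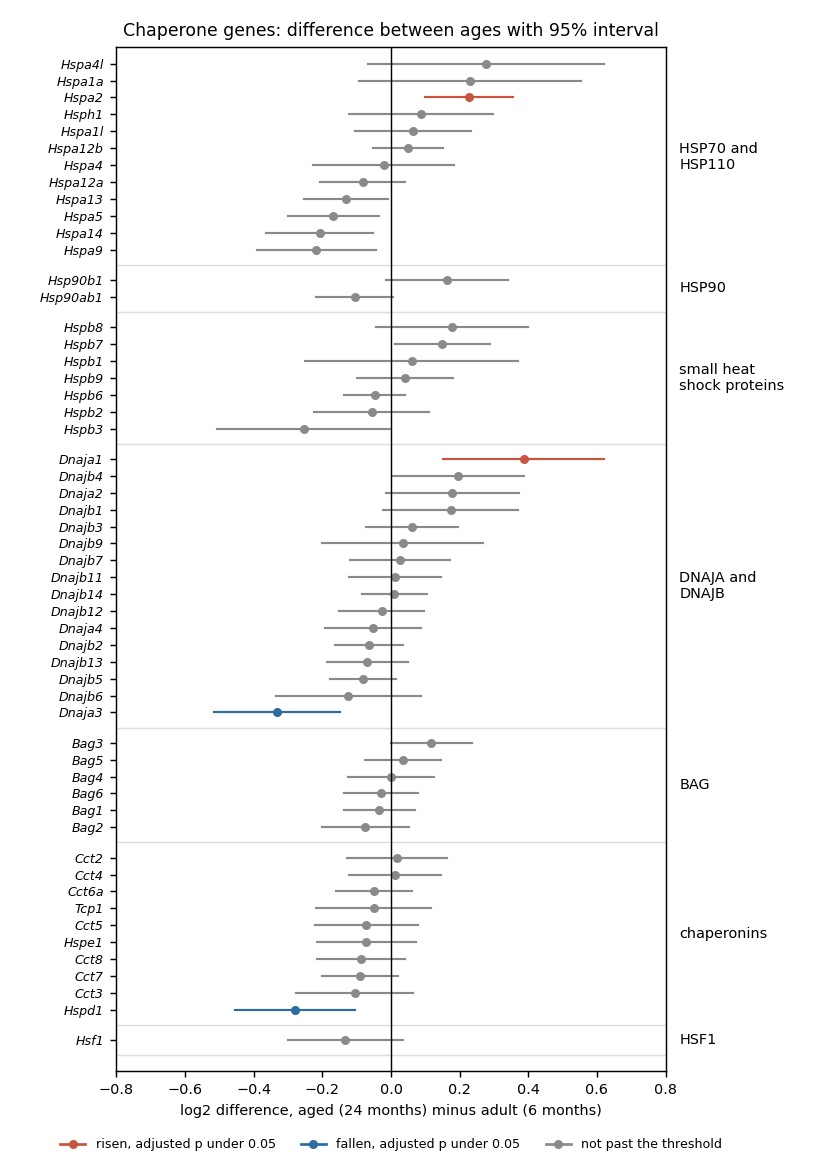
Log2 difference between aged and adult hearts for each of the 54 chaperone genes, ordered within 7 functional groups, with the 95% interval of the limma fit (5 arrays per age). Dnaja1 and Hspa2 lie to the right, Dnaja3 and Hspd1 to the left, and the intervals of most other genes cross 0.

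The adjusted p of each of the 4 called genes crossed the threshold when certain single arrays were left out. That of Dnaja1 was lost without any one of adult arrays 1, 2, 3, 4 or 6 or aged arrays 4, 5 or 6 (adjusted p 0.0506 to 0.0867). Dnaja3 was lost without adult array 1, 2 or 3 or aged array 5 (0.0530 to 0.0677), and Hspa2 without adult array 1 or 3 or aged array 4, 5 or 6 (0.0532 to 0.0731). Hspd1 was lost without adult array 1, 3 or 4 or aged array 2, 3, 5 or 6 (0.0560 to 0.105). In the 11 other settings, which changed the processing or the set of arrays, the limma call of Hspd1 was lost in 4 (adjusted p up to 0.150). That of Dnaja3 was lost in 3 (up to 0.127) and that of Dnaja1 in 2 (up to 0.132). Hspa2 was lost in 2 of the 10 that kept its probe sets (up to 0.124). Over the omissions of 1 array the differences themselves ran from 0.32 to 0.45 for Dnaja1, 0.20 to 0.27 for Hspa2, -0.39 to -0.26 for Dnaja3 and -0.32 to -0.23 for Hspd1. The number of members called was 0 without adult array 1 or 3 or aged array 5 (limma; 10, 12 and 7 members at an unadjusted p under 0.05), 1 without aged array 6, 2 without adult array 2 or 4 or aged array 4, 3 without adult array 6, and 5 without aged array 2 or 3. Among all genes the same omissions called between 6.95% and 14.0%.

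The promoters of the 4 called genes and of Hspe1, the HSP10 gene paired with Hspd1, are shown with their heat shock elements. Each is 300 bases from 250 before to 50 after the RefSeq start on GRCr8, with matches to GAANNTTC or TTCNNGAA in capitals. Both motifs are their own reverse complements, and neighbouring matches may share bases.
Dnaja1 (GRCr8 chr5:60638154-60638453, plus strand): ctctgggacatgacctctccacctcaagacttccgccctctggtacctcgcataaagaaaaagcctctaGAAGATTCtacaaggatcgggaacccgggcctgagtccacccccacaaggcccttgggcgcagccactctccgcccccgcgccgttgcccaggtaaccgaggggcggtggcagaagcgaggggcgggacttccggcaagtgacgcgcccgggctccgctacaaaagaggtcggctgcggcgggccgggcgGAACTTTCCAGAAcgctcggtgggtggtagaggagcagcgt
Hspa2 (GRCr8 chr6:100864192-100864491, plus strand): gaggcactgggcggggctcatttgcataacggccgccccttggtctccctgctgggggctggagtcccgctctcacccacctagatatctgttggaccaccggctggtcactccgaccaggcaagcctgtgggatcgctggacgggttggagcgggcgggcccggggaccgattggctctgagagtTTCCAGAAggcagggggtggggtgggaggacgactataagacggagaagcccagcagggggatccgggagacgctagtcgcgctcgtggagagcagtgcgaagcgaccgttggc
Hspd1 (GRCr8 chr9:64083988-64084287, minus strand): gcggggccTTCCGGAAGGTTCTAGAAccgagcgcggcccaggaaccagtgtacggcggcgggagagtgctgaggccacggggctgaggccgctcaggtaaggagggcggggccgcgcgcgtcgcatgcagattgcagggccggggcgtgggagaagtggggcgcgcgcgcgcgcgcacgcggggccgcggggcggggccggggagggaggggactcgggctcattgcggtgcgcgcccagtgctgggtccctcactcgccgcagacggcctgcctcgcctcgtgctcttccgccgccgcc
Hspe1 (GRCr8 chr9:64084077-64084376, plus strand): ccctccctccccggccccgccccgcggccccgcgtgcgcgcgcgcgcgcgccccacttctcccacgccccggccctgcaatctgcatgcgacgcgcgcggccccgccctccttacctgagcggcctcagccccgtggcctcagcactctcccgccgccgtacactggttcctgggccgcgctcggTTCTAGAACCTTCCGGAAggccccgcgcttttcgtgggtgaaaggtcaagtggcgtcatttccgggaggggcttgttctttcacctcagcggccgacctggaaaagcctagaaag
Dnaja3 (GRCr8 chr10:11386550-11386849, minus strand): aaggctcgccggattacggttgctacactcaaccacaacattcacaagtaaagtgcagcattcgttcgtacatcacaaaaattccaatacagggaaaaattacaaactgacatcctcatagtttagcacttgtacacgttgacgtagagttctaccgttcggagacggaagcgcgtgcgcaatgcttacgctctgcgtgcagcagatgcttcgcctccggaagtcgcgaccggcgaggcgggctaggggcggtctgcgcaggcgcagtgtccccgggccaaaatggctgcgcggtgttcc
Dnaja1 held 3 matches, 2 of them just after the start at positions 10 to 22, and Hspa2 held 1, at -64 to -57. Hspd1 and Hspe1 lie head to head with starts 290 bases apart, so 211 bases of their windows are the same DNA read on opposite strands, and both windows hold the same 3 overlapping matches. The Dnaja3 window held no match, which says only that these letters are not in it. The window of Hspa1a, the main stress-inducible HSP70, also held none, and elements outside the windows were not counted. Of the 54 members 48 had a promoter in the table, and 16 of these (33.3%) held either motif, against 15.4% of 27457 promoters of the same length. The longer forms of 3 repeats, GAANNTTCNNGAA and its reverse complement TTCNNGAANNTTC, were added after the data were seen and stood in 5 of 48 (10.4%), those of Cct4, Dnaja1, Hspd1, Hspe1 and Hsph1, against 0.736% of all promoters. The matches that Hspd1 and Hspe1 share were counted for each of these genes. All these counts are descriptions of sequence and were not tested. Of the 5 genes with the longer form, Dnaja1 rose, Hspd1 fell and the other 3 were not called.

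Among the J-domain genes, the partners that hand clients to HSP70, 1 of 16 rose and 1 fell (12.5% called, against 11.9% of all genes). Dnaja1 read -0.12, -0.39, -0.06, -0.02 and -0.02 on adult arrays 1, 2, 3, 4 and 6 and 0.04, -0.0017, 0.41, 0.34 and 0.53 on aged arrays 2, 3, 4, 5 and 6. Every aged array lay above every adult array, with arrays 4, 5 and 6 highest among the aged and adult array 2 well below the others. The group values were -0.12 ± 0.16 in adult and 0.27 ± 0.24 in aged hearts (SD, n = 5 each), a difference of 0.39 ± 0.11 SE, adjusted p = 0.0364. Its 2 probe sets, both in the brightest of 3 intensity classes read from the numerical step of the values, gave 0.41 (adjusted p = 0.0184 over probe sets) and 0.36 (0.0916). Adult array 2 was also the array with an adipocyte marker score of 1.22, against -0.12 to 0.14 on the other 9. The part of that score in the Dnaja1 value was not tested. Without adult array 2 Dnaja1 differed by 0.32 (adjusted p = 0.0867), 1 of 8 single omissions that ended its call. The other cytosolic J-domain genes with the smallest p did not pass: Dnajb4 gave 0.20 ± 0.09 SE, adjusted p = 0.18, and Dnaja2 gave 0.18 ± 0.09 SE, adjusted p = 0.231. Dnajb1, the classic HSP40 induced by heat, gave 0.17 ± 0.09 SE, adjusted p = 0.256 (named after its values were seen). Dnaja3 read 0.21, 0.15, 0.22, 0.10 and -0.03 on adult arrays 1, 2, 3, 4 and 6 and 0.03, -0.48, -0.17, -0.25 and -0.14 on aged arrays 2, 3, 4, 5 and 6. Aged array 3 was lowest, and aged array 2 lay above adult array 6, so the groups overlapped. The difference was -0.33 ± 0.08 SE, adjusted p = 0.0252, from 1 probe set. The remaining 11 J-domain genes, Dnaja4, Dnajb2, Dnajb3, Dnajb5, Dnajb6, Dnajb7, Dnajb9, Dnajb11, Dnajb12, Dnajb13 and Dnajb14, had differences from -0.12 (Dnajb6) to 0.06 (Dnajb3).

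Of the 4 mitochondrial chaperones 2 fell, where 5.09% of all genes were called downward. All 4 had lower means in aged hearts, as did 7365 of the 14217 genes. Hspd1 read 0.12, -0.0015, 0.26, 0.32 and 0.0015 on adult arrays 1, 2, 3, 4 and 6 and -0.12, -0.33, 0.04, -0.18 and -0.10 on aged arrays 2, 3, 4, 5 and 6. Only aged array 4 rose above the lowest adult arrays, 2 and 6, and the groups were 0.14 ± 0.15 in adult and -0.14 ± 0.14 in aged hearts (SD, n = 5 each). Its difference was -0.28 ± 0.08 SE, adjusted p = 0.0421. Hspe1, which encodes the lid of the HSP60 barrel, gave -0.07 ± 0.07 SE, adjusted p = 0.544, with a 95% interval of -0.22 to 0.07. Within an array, Hspd1 minus Hspe1 averaged 0.11 ± 0.19 in adult and -0.10 ± 0.12 in aged hearts (SD, n = 5 each). That difference of -0.21, tested after its values were seen, did not pass (two-sided exact permutation p = 0.0635, smallest possible 0.00794), so these arrays do not show that the pair changed unequally. Hspa9, the mitochondrial HSP70 that pulls proteins into the matrix, read 0.23, -0.08, 0.22, 0.24 and -0.03 on adult arrays 1, 2, 3, 4 and 6 and -0.10, -0.29, 0.04, -0.11 and -0.05 on aged arrays 2, 3, 4, 5 and 6. It did not pass (-0.22 ± 0.08 SE, adjusted p = 0.0992), and its 4 probe sets were all lower but ranged from -0.42 to -0.05. Hspa9 followed Hspd1 from array to array, as set out further on. Outside the group, a list of 12 other mitochondrial folding and protease genes had 4 that fell and 0 that rose (limma; 6 at an unadjusted p under 0.05), against 5.09% and 6.77% of all genes. They were Clpb (-0.41, adjusted p = 0.00754), a disaggregase, Clpp (-0.26), a protease, Phb2 (-0.17), a prohibitin, and Trap1 (-0.26), the mitochondrial HSP90. Trap1 was named after its values were seen. Clpb passed under every alternative run (highest adjusted p 0.0405), whereas leaving out single arrays ended the calls of Clpp without adult array 1, 3 or 6 or aged array 4, 5 or 6 (at most 0.0646). Of the 11 other settings, Clpp was lost in 3, Phb2 in 7 and Trap1 in 5. Phb2 was lost without any single array except adult 6 or aged 4 (0.0633 to 0.0997) and Trap1 without any except aged 2 (0.0535 to 0.110).

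In the HSP70 and HSP110 families, 1 of 12 genes rose and 0 fell (limma; 5 at an unadjusted p under 0.05). The share called was 8.33%, against 11.9% of all genes, and that at an unadjusted p under 0.05 was 41.7%, against 26.3%. Hspa2 read -0.11, -0.04, -0.17, -0.07 and -0.00037 on adult arrays 1, 2, 3, 4 and 6 and 0.07, -0.01, 0.23, 0.21 and 0.24 on aged arrays 2, 3, 4, 5 and 6. Aged arrays 4, 5 and 6 stood highest, and aged array 3 lay just below adult array 6. The difference was 0.23 ± 0.06 SE, adjusted p = 0.0271. Both Hspa2 probe sets fell in the dimmest intensity class. One gave 0.38 (adjusted p = 0.00688 over probe sets) and the other 0.07 (0.585), so the rise rested on 1 of 2 probe sets. Hspa1a, the main stress-inducible HSP70, read -0.17, 0.03, -0.0034, -0.25 and -0.17 on adult arrays 1, 2, 3, 4 and 6 and 0.18, -0.47, 0.33, 0.0034 and 0.53 on aged arrays 2, 3, 4, 5 and 6. Aged arrays spread from the lowest to the highest of all 10, and the group SD was 0.38 in aged and 0.12 in adult hearts. The difference of 0.23 ± 0.15 SE, adjusted p = 0.37 did not pass, with an interval of -0.09 to 0.55. Without aged array 3 it was 0.38 and passed (adjusted p = 0.0299). Hspa1a and Hspa1b are nearly identical in sequence, so the probe set may read both.

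The endoplasmic reticulum HSP70 gene Hspa5 (BiP) read 0.14, 0.02, 0.20, 0.19 and -0.02 on adult arrays 1, 2, 3, 4 and 6 and 0.06, -0.13, -0.03, -0.17 and -0.03 on aged arrays 2, 3, 4, 5 and 6. All aged arrays but array 2 were below 0 and all adult arrays but array 6 above it, yet the difference did not pass (-0.17 ± 0.06 SE, adjusted p = 0.0986). Hspa14, a ribosome-associated HSP70, gave -0.21 ± 0.07 SE, adjusted p = 0.0827, and passed without aged array 2 (-0.25, 0.0355). The 7 members of the endoplasmic reticulum (Hspa5, Hspa13, Hsp90b1, Dnajb9, Dnajb11, Dnajb12 and Dnajb14) had 0 calls (limma; 2 at an unadjusted p under 0.05, Hspa5 and Hspa13) and differences from -0.17 to 0.16. The other HSP70 genes Hspa1l, Hspa12a, Hspa12b and Hspa13 and the HSP110 genes Hspa4, Hspa4l and Hsph1 ranged from -0.13 (Hspa13) to 0.28 (Hspa4l). For Hspa4l adult arrays alone ran from -0.60 to 0.29, and its interval was -0.07 to 0.62.

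Neither HSP90 gene measured passed (limma; 0 of 2 also at an unadjusted p under 0.05). Hsp90ab1, the constitutive cytosolic form, read 0.01, -0.0035, 0.13, 0.09 and -0.02 on adult arrays 1, 2, 3, 4 and 6 and -0.09, -0.05, -0.13, -0.11 and 0.06 on aged arrays 2, 3, 4, 5 and 6. Adult arrays 3 and 4 were highest and aged array 4 lowest, and aged array 6 lay among the adult arrays. The difference was -0.11 ± 0.05 SE, adjusted p = 0.22, with an interval of -0.22 to 0.01. Hsp90b1, the endoplasmic reticulum form known as GRP94, gave 0.16 ± 0.08 SE, adjusted p = 0.236, but aged array 2 stood at 0.41 while the other 4 aged arrays lay between -0.03 and 0.03. Without that array its difference was 0.08.

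Of 20 co-chaperones and heat shock factors that serve HSP90 and HSP70, 3 fell and 2 rose, where 5.09% of all genes were called downward and 6.77% upward. Fkbp4, an immunophilin of steroid receptor complexes, fell by 0.48 on the log2 scale (± 0.08 SE, adjusted p = 0.00476), Ppp5c, an HSP90-bound phosphatase, by 0.36 (0.00516) and Stip1, which bridges HSP70 to HSP90, by 0.30 (0.0108). In each of these 3 every aged array lay below every adult array. Fkbp4 and Ppp5c passed under every alternative run (highest adjusted p 0.0231 and 0.0483). Stip1 passed in all but 1 of them. Unc45a (0.17) and St13 (0.22), both named after their values were seen, rose. Among omissions of 1 array, Unc45a was lost without aged array 6 (0.0521), and St13 without adult array 2 (0.0545) or aged array 6 (0.0550). Of the 11 other settings, Unc45a was lost in 3 (adjusted p up to 0.124) and St13 in 2 (up to 0.104). Of 9 striated muscle folding factors and partners of BAG3, 3 fell and 0 rose (5.09% and 6.77% of all genes). Unc45b, the myosin chaperone that works with HSP90, fell by 0.43 (adjusted p = 0.00592) and Smyd1, a muscle methyltransferase of the same pathway, by 0.38 (0.0021), both with no overlap between the ages and both past the threshold under every alternative run (highest adjusted p 0.0327 and 0.0144). Des (-0.34, 0.0412), the intermediate filament desmin, was lost without any single array except adult 1 or aged 6 (0.0522 to 0.0966) and in 1 of the 11 other settings.

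Of the 7 small heat shock protein genes 0 passed (limma; 2 at an unadjusted p under 0.05). Hspb7, a muscle form that binds filamin, gave 0.15 ± 0.06 SE, adjusted p = 0.157, with probe sets at 0.02 and 0.28, and passed without aged array 2 (0.20, 0.0276). Hspb3, another muscle form, read 0.13, 0.19, 0.02, -0.02 and -0.06 on adult arrays 1, 2, 3, 4 and 6 and 0.04, 0.16, -0.41, -0.29 and -0.51 on aged arrays 2, 3, 4, 5 and 6. Aged arrays 4, 5 and 6 were below all adult arrays and aged arrays 2 and 3 were not, and the difference did not pass (-0.25 ± 0.12 SE, adjusted p = 0.189). It passed without aged array 3 (-0.34, 0.0441) or with array weights (-0.32, 0.0472). Hspb1, the small heat shock protein HSP27, read -0.06, 0.04, 0.01, -0.30 and -0.0005 on adult arrays 1, 2, 3, 4 and 6 and 0.0005, -0.58, 0.22, -0.01 and 0.36 on aged arrays 2, 3, 4, 5 and 6. Its aged arrays spanned the whole range of the 10, its difference was 0.06 ± 0.14 SE, adjusted p = 0.839, and the sign turned without aged array 6 (-0.031). Hspb8, the partner of BAG3, gave 0.18 ± 0.10 SE, adjusted p = 0.302. Hspb2, Hspb6 and Hspb9 lay between -0.06 and 0.04, and Hspb6, a cardiac form, had the smallest SD of any member among adult arrays, with an SD of 0.02 in adult and 0.05 in aged hearts.

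No BAG gene passed (limma; 0 of 6 also at an unadjusted p under 0.05). Bag3, which with HSPB8 sends damaged sarcomere proteins to autophagy, came nearest (0.12 ± 0.05 SE, adjusted p = 0.191), and Bag2, an inhibitor of the ubiquitin ligase CHIP, gave -0.08 ± 0.06 SE, adjusted p = 0.463. Bag1, Bag4, Bag5 and Bag6 lay between -0.03 and 0.04. Of the 8 subunits of TRiC 0 passed (limma; 0 at an unadjusted p under 0.05), with 6 lower means, 2 higher, and differences from -0.11 (Cct3) to 0.02 (Cct2). Cct7 gave -0.09 ± 0.05 SE, adjusted p = 0.301, with an interval of -0.20 to 0.02, and Cct8 gave -0.09 ± 0.06 SE, adjusted p = 0.385. Prefoldins and tubulin cofactors, which pass clients to and from TRiC, had 3 of 13 risen and 0 fallen (6.77% and 5.09% of all genes). They were the prefoldin genes Pfdn4 (0.39, adjusted p = 0.0114) and Pfdn5 (0.31, 0.0468) and the tubulin cofactor gene Tbcb (0.32, 0.0283). Pfdn4 passed under every alternative run (highest adjusted p 0.0492). Pfdn5 was lost without any single array except adult 6 or aged 4 (0.0522 to 0.115), and Tbcb without adult array 2, 3, 4 or 6 or aged array 5 or 6 (0.0505 to 0.0722). Of the 11 other settings, Pfdn5 was lost in 4 and Tbcb in 1. Hsf1 did not pass (-0.13 ± 0.08 SE, adjusted p = 0.311, interval -0.30 to 0.04), and aged array 3 was its lowest at -0.29.

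**Figure D2:**
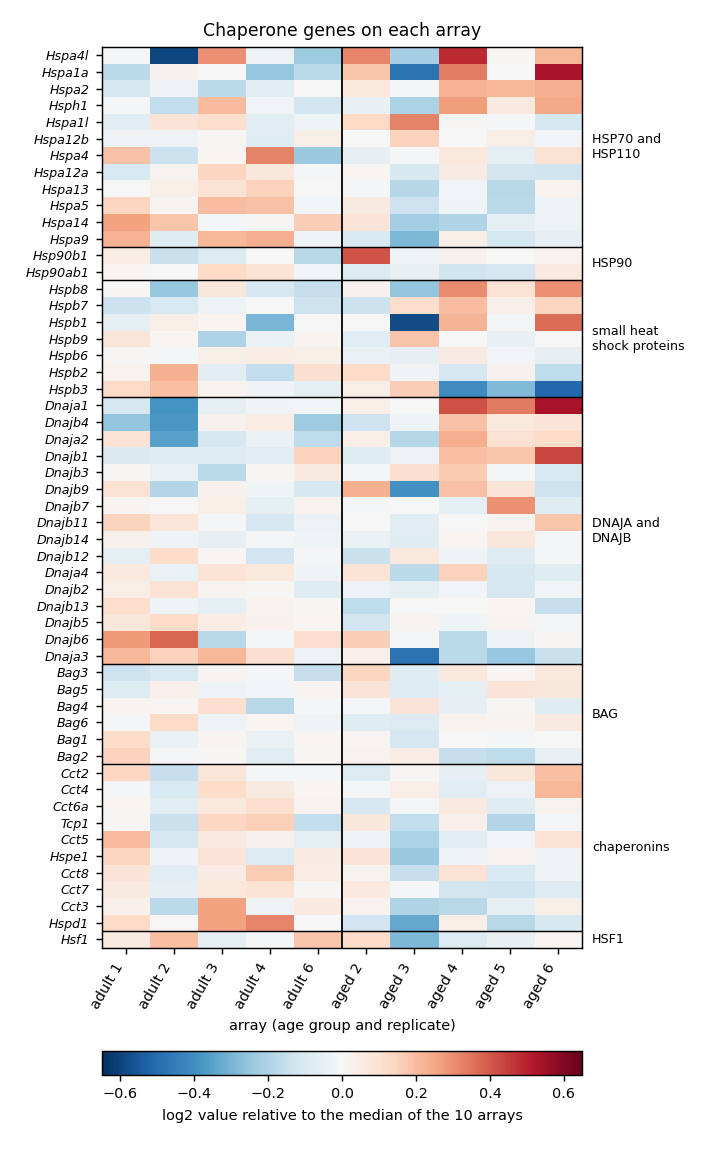
Log2 value of each of the 54 chaperone genes on each array, relative to the median of the 10 arrays, with adult arrays to the left of the line and aged arrays to the right. Aged array 3 has the lowest value in 19 genes, and aged arrays 4 and 6 are high in Hspa1a, Hspb1, Hspb8 and Dnaja1.

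Within the aged group the arrays differed from each other in these genes. Aged array 3 held the lowest of the 10 values for 19 of 54 members (35.2%), against 15.3% of all genes, and no other array held the lowest for more than 6. It was lowest in Hspa1a, Hspb1, Hsph1, Hspb8, Hspa9, Hspd1, Dnaja3 and Hsf1. Aged array 4 held the highest value for 9 members (16.7%), against 6.24% of all genes. Aged array 3 also had the highest scores of immediate early genes (0.36) and lymphocyte markers (0.53) and the lowest of cardiomyocyte markers (-0.24). On that array the lymphocyte markers Gzma and Nkg7 read 3.38 and 1.87, and the cardiomyocyte marker Myh6 read -1.30, so single genes weigh heavily in these means. The part of these scores in the chaperone values was not tested.

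A few pairs of members moved together over the arrays, and pairs of genes outside the group were not examined. After their values were seen, Hspa1a and Hspd1 were each set against the 53 other members, 106 relations in all. The p came from 100000 permutations of the arrays across both ages and was adjusted over these relations. An age difference shared by both genes of a pair therefore enters its p. By Pearson 5 of the 106 relations passed, 1 with Hspa1a and 4 with Hspd1. Hspa1a correlated with Hspb1 (n = 10 arrays, Pearson r = 0.92, permutation p = 0.00033, adjusted p = 0.0175, Spearman rho = 0.89, permutation p = 0.00142, adjusted p = 0.0502). The coefficient was 0.82 without aged arrays 3 and 6, the 2 farthest from the median of Hspa1a, and 0.96 for deviations from each age mean. Its next highest coefficients, with Hspb8 (0.82) and Hsph1 (0.74), did not pass (permutation p, adjusted, 0.0638 and 0.136). Hspd1 correlated most with Hspa9 (n = 10, r = 0.95, rho = 0.98), where both permutation p were 1e-05, the smallest that this number of permutations can give (adjusted p = 0.00106). It was 0.90 without aged array 3 and adult array 4 and 0.92 for deviations from the age means. Hspd1 also passed by Pearson with Hspa5 (0.88), Hspa13 (0.88) and Cct8 (0.86), each with adjusted permutation p = 0.0363. In that order these were 0.82, 0.71 and 0.65 without aged array 3 and adult array 4. For deviations from the age means they were 0.76, 0.77 and 0.85. By Spearman only Cct8 of these 3 passed (adjusted permutation p = 0.0424, against 0.148 and 0.232). Its coefficient with Hspe1 was 0.41 (adjusted permutation p = 0.631). Each age has 5 arrays, too few for a coefficient within an age, and all genes share the RNA of each array.

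**Figure D3:**
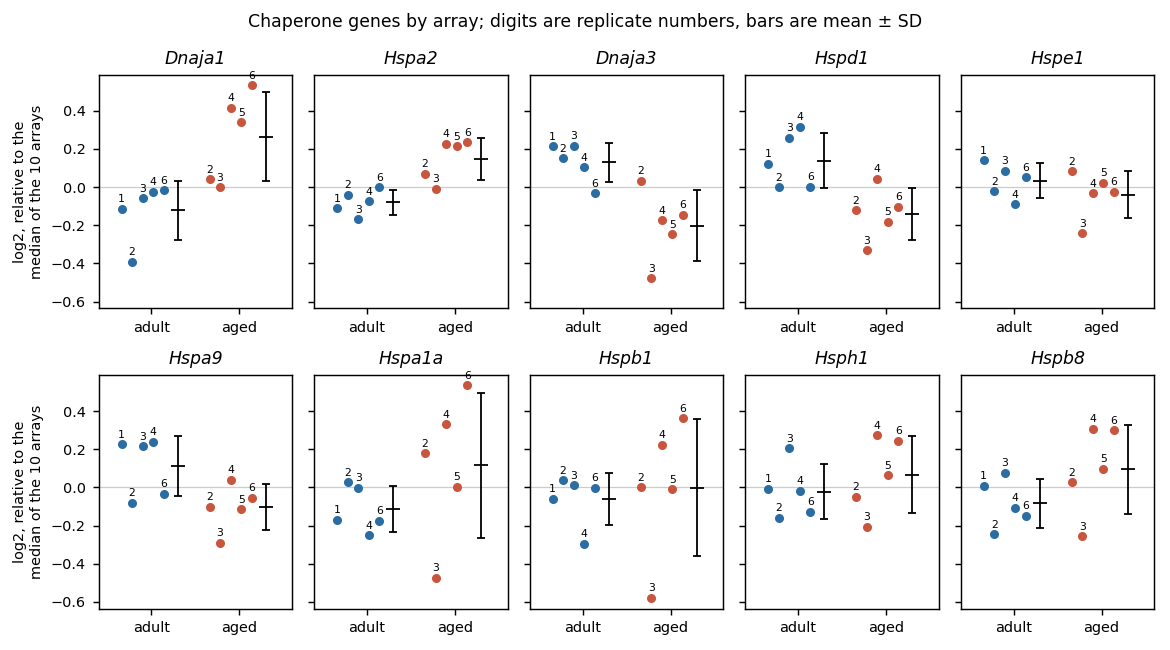
Log2 values of 10 chaperone genes by array, with replicate numbers as digits and black bars for mean ± SD (n = 5 per age). The aged arrays of Hspa1a and Hspb1 spread from the lowest to the highest value, with array 3 at the bottom and array 6 at the top, while the arrays fall in nearly the same order in Hspd1 and Hspa9.

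Probe sets of 1 gene mostly pointed the same way. Of the 18 members with 2 or more probe sets, 4 had probe sets of both signs (Cct6a, Dnajb12, Dnajb14 and Dnajb5), and none of those passed. Singly, 3 of 77 probe sets were called (3.9%, against 8.03% of all probe sets), those of Dnaja1, Hspa2 and Dnaja3. The probe set of Hspd1, its only one, gave adjusted p = 0.0530 over probe sets. The widest gaps between probe sets were 0.37 for Hspa9, 0.31 for Hspa2, 0.26 for Dnajb14 and 0.25 for Hspb7.

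**Figure D4:**
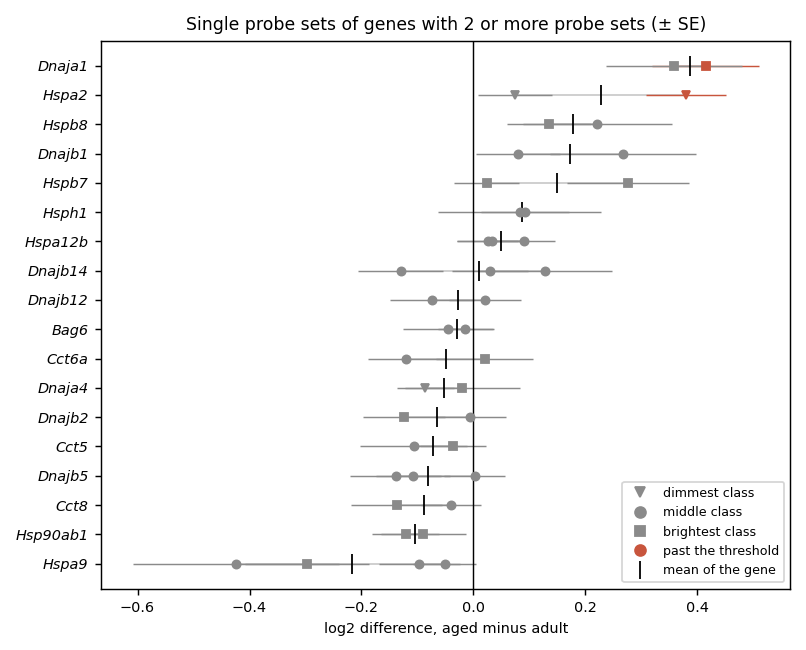
Log2 difference between the ages of each single probe set (± SE) for the 18 chaperone genes with 2 or more probe sets, with the shape giving the intensity class and the vertical tick the gene's mean. The probe sets of Hspa2, Hspa9 and Hspb7 lie apart from each other, and those of Dnaja1 and Hsph1 lie close together.

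Both remaining lists of folding genes held calls, in 4.35% (class C) and 13.6% (endoplasmic reticulum) of their genes, against 11.9% of all genes. J-domain genes of class C, whose members serve diverse complexes, had 1 of 23 fallen, Dnajc4 (-0.18, adjusted p = 0.0491), and 0 risen. Dnajc4 was lost without any single array except adult 4 or 6 or aged 2 (0.0753 to 0.117). Dnajc9 (0.24, 0.0508), a histone chaperone, passed in 7 of 21 alternatives, without adult array 1 (0.0444) or aged array 2 (0.0133) and in 5 other settings (adjusted p down to 0.0230). Dnajc18 (-0.15, 0.108) passed without aged array 2 (0.0147). Of 22 genes of folding and the unfolded protein response in the endoplasmic reticulum, Herpud1 (0.19) and the stress regulator Atf4 (0.25) rose and the disulfide isomerase gene Pdia3 (-0.21) fell. Atf4 was lost without any single array except adult 1 or aged 2 or 3 (0.0664 to 0.0981), Herpud1 without adult array 2 or aged array 5 or 6 (0.0607 to 0.0679) and Pdia3 without adult array 1, 2 or 3 or aged array 4 or 5 (0.0658 to 0.0774). Of the 11 other settings, Dnajc4 was lost in 8 and Atf4, Herpud1 and Pdia3 in 3 each. Over the 99 genes of the 6 folding lists, 7 rose and 12 fell (19.2%, against 11.9% of all genes), with a median difference of -0.0068. These lists too are unlike all genes in signal, of which 19.9% held a brightest-class probe set. Such probe sets were held by 10 of 20 co-chaperone, 12 of 23 class C and 5 of 13 prefoldin and tubulin cofactor genes. The counts were 12 of 22 for endoplasmic reticulum, 7 of 12 for mitochondrial and 7 of 9 for striated muscle genes. The count of 19 fell to 9 without adult array 2 or aged array 5 or 6, to 10 without adult array 3, and to 8 without aged arrays 3 and 6 together. Over all genes those omissions called 7.36%, 7.05%, 7.66%, 6.95% and 7.12%.

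Other transcripts were compared over the same arrays, on which 6.77% of all genes were called upward and 5.09% downward. Of 12 immediate early genes 6 rose and 0 fell, among them Nr4a1 (0.63), Egr2 (0.34) and Atf3 (0.56), and their mean log2 score ran from -0.23 to -0.01 on adult and 0.05 to 0.36 on aged arrays. Every one of the 9 cardiomyocyte markers was read by at least 1 brightest-class probe set. Of them 1 rose, Myh7 (0.76), and 2 fell, Myh6 (-1.24) and Ryr2 (-0.55), with 8 means lower and 1 higher. Their score ran from -0.03 to 0.21 on adult and -0.24 to 0.05 on aged arrays. Macrophage markers rose in 5 of 11 (-0.42 to 0.0034 against 0.02 to 1.03) and fibroblast markers in 6 of 10 (-0.46 to -0.03 against 0.06 to 0.55). Atrial markers rose in 2 of 6 (-0.68 to -0.20 against 0.09 to 0.51), Nppa (2.69) and Myl7 (1.45). Of the 6, 5 had higher means and 1, Tbx5, a lower one (-0.29, not called). Endothelial markers rose in 2 of 8 (-0.11 to 0.04 against -0.01 to 0.26). Lymphocyte markers rose in 1 of 12 (-0.21 to 0.03 against 0.04 to 0.53), Gzma (1.98). Their median difference was 0.03, with 7 higher means and 5 lower. Smooth muscle and pericyte markers rose in 1 of 8 (-0.13 to 0.09 against -0.09 to 0.10). The shares called of lymphocyte markers (8.33%) and of smooth muscle and pericyte markers (12.5%) were near the 11.9% of all genes. Erythroid markers (0 of 4 called, limma; 0 at an unadjusted p under 0.05) reached 1.17 on aged array 6, and adipocyte markers (0 of 5; 1 at an unadjusted p under 0.05) 1.22 on adult array 2. Since values are relative, whether any marker was absent cannot be read from them. Their part in the chaperone differences was not tested.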

How the data were processed

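Per the labels' protocols, RNA was extracted with TRIzol, column purified, amplified over 2 rounds of cDNA synthesis and biotin-labelled. The authors deposited 1 signed log2 value per probe set and array. The log base is inferred from the single-precision step of the values, each probe set has a median of 0 over the 10 arrays, and the sources used here name neither software nor normalization. Array medians lay between -0.0097 and 0.0093. From the same step, 4906 probe sets were placed in a dimmest, 22473 in a middle and 3663 in a brightest intensity class, which is approximate.

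Of the probe sets, 20826 had 1 gene symbol, 436 several and 9780 none listed. Symbols were updated by gene identifier through RefSeq (GRCr8, 20758 matched) and probe sets averaged per gene. Ages were compared over all 14217 genes and again over all probe sets with limma 3.58.1 (lmFit, eBayes) in R 4.3.3, without covariates, with Benjamini-Hochberg adjustment, after the fit was tested on simulated data. Python 3.11.15 (scipy 1.17.1) ran the permutation tests. Scores are means of a list's values. Named by rule were every called member, the 2 uncalled members of smallest p in each functional group, all HSP90, HSP60, HSP10 and HSF1 genes, Hspa1a, and up to 3 genes per other list. Hspa9, Hspb1, Hsph1, Hspb8, Dnajb1 and further names were added after their values were seen. Members and lists were chosen with earlier results of these data known. Alternatives changed the scaling, the probe set summary, the filter on dim probe sets, the weights, the variance prior and the arrays used. Same-numbered arrays did not deviate together (correlations 0.03 to 0.15, 1 of 4 over 0.1), so replicate numbers were not taken as pairs.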

Additional observations from a re-analysis of the deposited data

Results flagged for a closer look

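In 3 of the 48 groups of 5 arrays tested (24 named members at each age), 1 array stood apart from the other 4 by more than Dixon's critical share of the range, 0.71. Chance gives such a flag in about 1 of 20 groups. Dnaja1 was -0.39 on adult array 2, where the other adult arrays lay between -0.12 and -0.02. Dnajb1 was 0.15 on adult array 6, against -0.10 to -0.07 on the others. Hsp90b1 was 0.41 on aged array 2, against -0.03 to 0.03.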

How the results depend on the processing

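Leaving out 1 array at a time gave 0 to 5 members called, 0 to 3 risen and 0 to 2 fallen (4, 2 and 2 on all arrays), 1 to 6 probe sets called (3), a median difference of -0.04 to -0.02 and 9 to 21 calls over the 6 folding lists (19). Over all genes it gave 988 to 1994 calls, against 1686. With aged arrays 3 and 6 both left out, 2 members were called and 0 fell, and the folding lists had 8 calls (1012 over all genes). Centring each array on its median left 1 fallen member. Taking the probe set with the largest range, or leaving out the dimmest probe sets, left 1 risen member, and the latter left 51 members to test. With the replicate number as a block over the 8 arrays of shared numbers, 1 member was called (1 risen, Dnaja1, and 0 fallen), the folding lists had 10 calls and 1069 genes were called. Those 8 arrays without the block, an alternative chosen after seeing the data, gave 0 members called, 0 risen, 0 fallen (limma; 6 at an unadjusted p under 0.05), 1 probe set, 10 folding list calls and 929 genes. The recomputed counts of the folding lists were also chosen after seeing the data. Hspb1 turned from 0.06 to -0.031 without aged array 6 and lay between -0.031 and 0.20 over the omissions of 1 array. Quantile normalization, the median of probe sets, array weights, robust eBayes and platform symbols kept 4 or 5 members called. The causes were not tested. Only 5 arrays per age and the unknown background signal limit precision.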

Other observations

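Spread within an age was larger in aged than in adult hearts for 35 of the 54 chaperone genes (64.8%), against 54.8% of all genes, a difference that was not tested. The SD of Hspa1a was 0.38 on aged and 0.12 on adult arrays, that of Hspb1 0.36 and 0.14, and that of Hspb3 0.29 and 0.11. Hspa4, an HSP110 gene, went the other way, with 0.07 on aged and 0.23 on adult arrays.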
